A study of Mus musculus with 6 samples.

Results

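Genes of the interstitial matrix were followed in MPC5 cells, a conditionally immortalized mouse podocyte line, with and without overexpression of the long non-coding RNA Dlx6-os1. The members were every collagen gene of the deposited transcript table other than the Col4a genes, together with a list of 30 named matrix glycoprotein, elastic fibre and proteoglycan genes. In all, 26 of the 11308 genes of the table were members, 13 of them collagens and 13 from the list, with 63 of its 21849 transcripts. The other 17 listed genes, which include Fbn1, Dcn, Bgn, Lum, Postn, Vcan, Eln and Tgfbi, have no row in the table as given and were not analysed here, and neither were Col1a2, Col3a1 and Col6a3. The rule also takes in collagens that are not strictly interstitial, such as Col18a1 and the transmembrane collagen gene Col23a1.

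RNA was sequenced from 3 samples of MPC5 cells made to overexpress Dlx6-os1 and from 3 control samples, all of C57BL/6 origin, grown in normal glucose and labelled as kidney foot process cells. The study's methods name an adenovirus for the overexpression and normal controls, whereas the labels name a lentivirus that carried dlx6-os1 or nothing, so what the control cells received is not settled, and control replicate 3 carries no genotype label. MPC5 is 1 cell line. The study states for its measurements in general that they came from independent experiments or different animals, without naming the sequencing, and the labels do not say whether these samples were separate cultures, so p-values may measure only a technical spread. The level of Dlx6-os1 itself is not analysed here, which leaves the labels unchecked by it.

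Podocytes wrap the capillaries of the glomerulus and lay down much of its basement membrane. Interstitial matrix is a different material: fibrillar collagens assemble into tension-bearing fibres, beaded and network-forming collagens tie them to cells and basement membranes, elastic microfibrils store latent TGF-beta, and matricellular proteins such as thrombospondin 1, tenascin C and SPARC tune how cells hold on to the mesh. Build-up of these proteins in the glomerulus and around tubules is the hallmark of scarring in diabetic kidney disease.

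Values are FPKM, fragment numbers scaled to transcript length and sequencing yield, summed over the transcripts of each gene. They added up to between 329402 and 371806 over the table in the 6 samples, and the read depth behind them is unknown. Of 23 podocyte markers 14 were measured, Synpo and Podxl among them, with sums of 590.4 to 606 FPKM in overexpression samples and 613 to 781 FPKM in controls. Nphs1, which encodes a slit diaphragm protein that defines podocytes, was not among those measured. The 8 measured of 18 fibroblast and mesangial markers summed to 169.7 to 190.2 FPKM in overexpression samples and 184 to 634 FPKM in controls. Control replicate 3 had the highest sum, mostly through Tagln and Acta2. Endothelial (3 of 14) and macrophage (2 of 12) markers were low, at 4.75 to 9.90 and 10.2 to 12.5 FPKM under overexpression and 4.54 to 5.05 and 10.6 to 13.5 FPKM in controls. Sums of the 4 measured of 15 tubule markers were 177 to 396 FPKM under overexpression and 429 to 653 FPKM in controls, and their part in the matrix results was not tested. Fewer cells that express a gene and less RNA per cell cannot be told apart in such samples.

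A minority of the interstitial matrix genes passed the thresholds of the study, and most of those that did were lower. At the thresholds of the study, a fold above 1.5 with an unadjusted p under 0.05, Col8a1, Col6a1, Col6a2 and Tnc were lower under Dlx6-os1 overexpression and Col16a1 and Col2a1 were higher. That is 4 of 26 members lower, where 2.23% of all genes were, and 2 higher, where 2.49% were. In all 6 members were called, or 23.1%, against 4.72% of all genes. No member passed a Benjamini-Hochberg adjusted p under 0.05 in limma (lowest adjusted p 0.487), while 7 members had an unadjusted p under 0.05, 5 of them lower (3.87% of all genes) and 2 higher (5.29%). Over all genes 0.0354% passed the adjusted p and 9.16% the unadjusted one. Changes are differences in log2(FPKM + 1), overexpression minus control.

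Of the 26 changes, 19 were below 0, against 45.8% over all genes, and their median was -0.20, against 0.03 over all genes. In 6 members all overexpression samples lay below all controls (6.24% of all genes) and in 1, Col2a1, all lay above (10.1%). Without limma's moderation of the variances none of the 6 calls stood. Calls over all genes were also fewer in both directions without that moderation, so the loss was not shown to be particular to the members. For 3 members, Col2a1, Col9a3 and Col23a1, the control mean was below the 0.5 FPKM that a transcript needed in 1 group or both to be listed, so these are in the table through their overexpression values. Among the other 23 members, 1 was higher and 4 were lower, with a median of -0.25. The 16 members with a mean of at least 5 FPKM held 3 of the lower calls and none of the higher, with a median of -0.29.

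**Figure D1:**
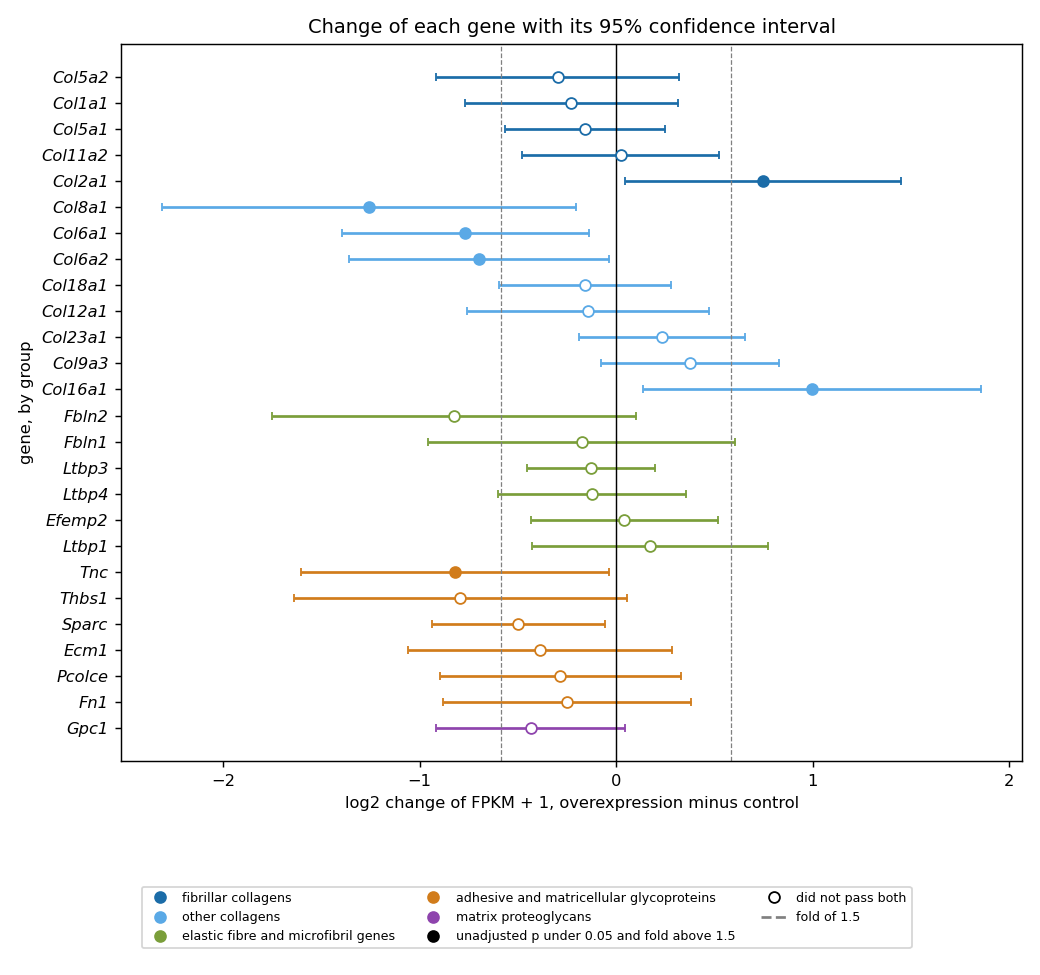
Change of each of the 26 genes on the log2(FPKM + 1) scale, overexpression minus control, with its 95% confidence interval from limma (3 samples a group), grouped by role. Filled points passed both thresholds of the study: Col8a1 at -1.26, Tnc at -0.82, Col6a1 at -0.77 and Col6a2 at -0.70 on the lower side, Col2a1 at 0.75 and Col16a1 at 1.00 on the higher side.

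Much of this came from 1 library. Overexpression replicate 3 was the lowest of the 6 samples in 17 of 26 members, against 20.2% of all genes. Against the control mean, the median member stood at -0.13, -0.08 and -0.54 in overexpression replicates 1, 2 and 3, while the median of all genes was 0.03, 0.03 and 0.04. The members' summed FPKM was 2409, 2245 and 1455 in the overexpression samples, against 2752, 2791 and 2796 in controls, and made up 0.703%, 0.657% and 0.391% of all FPKM, against 0.835%, 0.773% and 0.753%. All overexpression samples were thus below all controls in both measures, and replicate 3 was well below replicates 1 and 2. The most abundant members weigh most in such sums, with control means of 837 FPKM for Sparc and 480 FPKM for Thbs1, neither of them called. Without replicate 3 the calls were Col8a1, lower, and Col16a1, higher, where 1.6% of all genes were lower and 1.8% higher, and the median of the members was -0.07. Few calls were not particular to leaving out that library. Without control replicate 1 they were Col6a1 and Gpc1, and without control replicate 2 Col8a1 and Fbln2, all lower.

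**Figure D2:**
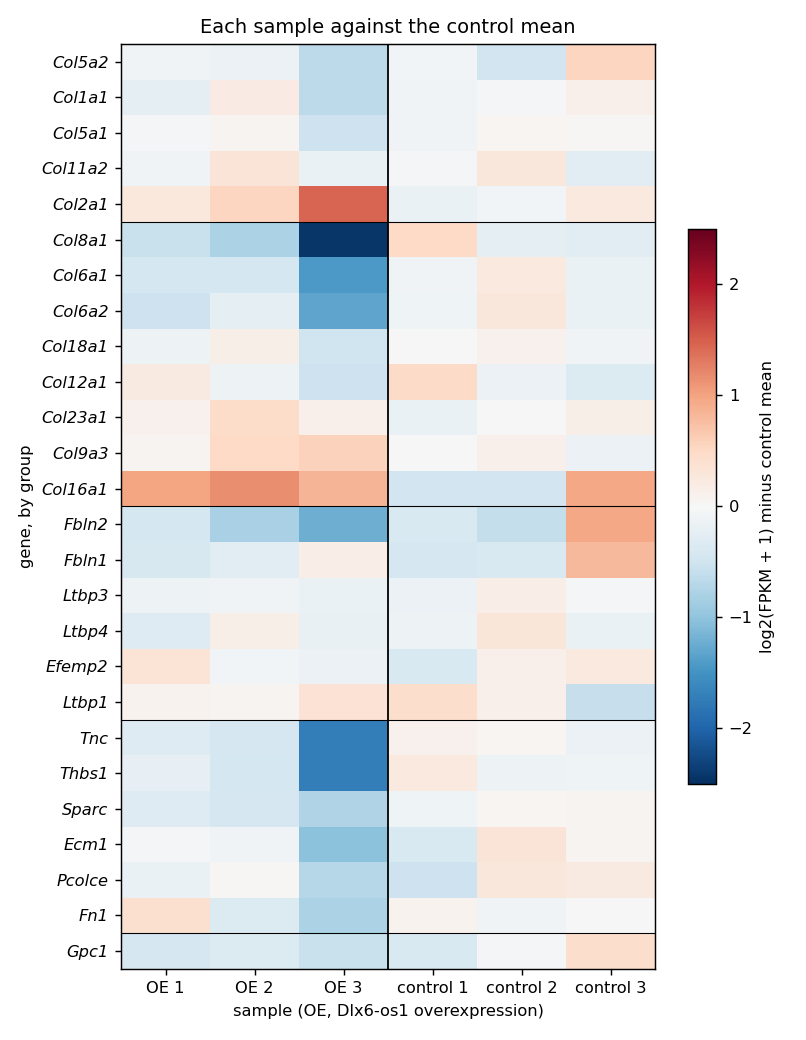
Each sample's log2(FPKM + 1) minus the control mean, for the 26 genes grouped by role, with overexpression samples on the left and controls on the right. The column of overexpression replicate 3 is the bluest (median -0.54) and holds the deepest value, that of Col8a1. In overexpression replicates 1 and 2 the medians are near the control mean (-0.13 and -0.08). Single genes depart from it there too, such as Col8a1 (-0.55 and -0.78) and Col16a1 (0.99 and 1.17).

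Of the collagens, the fibrillar ones make up the rope-like fibres of tendon, skin and scar, and 5 of 11 were measured. Col1a1, the main chain of type I collagen, was barely present, at 0.860, 1.51 and 0.385 FPKM in overexpression samples and 1.05, 1.13 and 1.39 FPKM in controls. Col5a1 and Col5a2, whose type V product nucleates type I fibrils and sets their width, were the only fibrillar collagens at appreciable level. Col5a1 averaged 32.6 ± 6.78 FPKM under overexpression and 35.9 ± 1.73 FPKM in controls (SD, n = 3 each), and Col5a2 44.5 ± 9.25 FPKM and 56.4 ± 20.7 FPKM. Neither passed (changes -0.16 and -0.30), and neither did Col11a2, a cartilage collagen gene, at 1.36 ± 0.452 FPKM and 1.33 ± 0.446 FPKM in the same order.

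Col2a1, the main collagen gene of cartilage, was called higher at very low levels. Its values were 0.657, 0.999 and 2.79 FPKM in overexpression samples, against 0.227, 0.326 and 0.632 FPKM in controls. The groups did not overlap, but the lowest overexpression value was close to the highest control value, and overexpression replicate 3 was far above the rest. The change was 0.75 ± 0.31 (SE, 95% interval 0.05 to 1.45), with adjusted p = 0.526 in limma. It was not called without overexpression replicate 3 (0.39), control replicate 1 (0.66) or control replicate 2 (0.72), nor among the main transcripts of all genes (0.75).

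Among the collagens, the network-forming and beaded ones held the largest decreases. Col8a1 encodes a chain of type VIII collagen, a short-chain collagen that forms hexagonal networks in subendothelial and corneal matrices. It measured 111, 94.6 and 29.5 FPKM in overexpression samples, against 231, 140.1 and 136 FPKM in controls. Every overexpression sample was below every control, and the controls themselves differed, replicate 1 standing above the other two. The change was -1.26 ± 0.46 (SE, 95% interval -2.31 to -0.20), with adjusted p = 0.496 in limma. Without overexpression replicate 3 it was smaller, at -0.67, and still called, and without control replicate 1 it was -1.01 and not called.

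Col6a1 and Col6a2 lie near each other on chromosome 10 and encode chains of type VI collagen, which assembles into beaded filaments close to cell surfaces. Col6a1 measured 28.3, 28.4 and 13.8 FPKM in overexpression samples, against 36.4, 46.4 and 34.6 FPKM in controls. Again the groups did not overlap and overexpression replicate 3 was lowest. The change was -0.77 ± 0.27 (SE, 95% interval -1.40 to -0.14, adjusted p = 0.487 in limma).

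Col6a2 was listed about an order of magnitude lower, at 2.14, 2.82 and 0.812 FPKM in overexpression samples, against 3.19, 4.47 and 3.03 FPKM in controls. These groups were also apart, with a change of -0.70 ± 0.29 (SE, 95% interval -1.36 to -0.03, adjusted p = 0.532 in limma). Without overexpression replicate 3 both genes fell short of the fold threshold, Col6a1 at -0.44 and Col6a2 at -0.38. Without control replicate 2, the highest control for both, neither was called (-0.64 and -0.56), and Col6a2 was not called without control replicate 1 (-0.75), after TPM rescaling (-0.68) or by its main transcript alone (-0.67).

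The windows from 250 bases before to 50 bases after the start sites of these lowered collagen genes are shown to give the sequence from which they are read. They are RefSeq's, on GRCm38.p6, all on the minus strand, at chr16:57754688-57754987 for Col8a1, chr10:76725995-76726294 for Col6a1 and chr10:76623581-76623880 for Col6a2, each the window nearest the start of the gene's most abundant transcript. Capitals mark matches, on either strand, to the 3 motifs that were searched, which are the AP-1 motif TGANTCA, the SP1 motif GGGCGG and, for the box of that name, TATAAA.
Col8a1: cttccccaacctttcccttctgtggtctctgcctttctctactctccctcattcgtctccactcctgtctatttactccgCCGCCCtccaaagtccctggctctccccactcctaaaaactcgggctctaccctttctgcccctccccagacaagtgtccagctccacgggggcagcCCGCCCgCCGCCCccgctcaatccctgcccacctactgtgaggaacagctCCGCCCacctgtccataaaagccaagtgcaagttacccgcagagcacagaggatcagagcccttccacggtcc
Col6a1: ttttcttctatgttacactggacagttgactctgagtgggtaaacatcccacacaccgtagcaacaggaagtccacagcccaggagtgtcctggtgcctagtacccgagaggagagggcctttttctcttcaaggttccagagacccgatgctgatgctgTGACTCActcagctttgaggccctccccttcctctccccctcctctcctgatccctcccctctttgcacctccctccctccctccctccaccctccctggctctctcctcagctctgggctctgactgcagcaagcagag
Col6a2: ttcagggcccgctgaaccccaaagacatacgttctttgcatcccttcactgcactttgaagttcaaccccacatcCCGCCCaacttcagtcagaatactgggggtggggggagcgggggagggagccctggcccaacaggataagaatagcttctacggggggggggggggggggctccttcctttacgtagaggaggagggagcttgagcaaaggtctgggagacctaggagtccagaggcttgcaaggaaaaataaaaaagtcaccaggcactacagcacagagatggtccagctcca

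The Col8a1 window holds 4 SP1 matches, with first bases at -170, -73, -66 and -23 from the start, that of Col6a1 holds 1 AP-1 match at -90, and that of Col6a2 holds 1 SP1 match at -175. No matches overlap within a window, and the 3 windows have no motif in common to all. Of all 32851 windows of that length, 7.81% hold AP-1, 35.7% SP1 and 13.6% the TATA box. Windows were found for 18 of the 26 members, of which 3, 14 and 3 hold these motifs in 1 window or more. These are counts of genes, some with more than 1 window, whereas the percents are of single windows. The counts and the percents can therefore not be compared. A match is a description of letters, not a binding site.

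Col16a1, a fibril-associated collagen gene that decorates fibrils and microfibrils, was the other gene called higher. It was listed at 1.77, 2.15 and 1.51 FPKM in overexpression samples and at 0, 0 and 1.75 FPKM in controls. Control replicate 3 lay within the overexpression range, so the groups overlapped, and a listed 0 for this single transcript can be a failed estimate. The change was 1.00 ± 0.38 (SE, 95% interval 0.14 to 1.86, adjusted p = 0.505 in limma), and it lost its call without control replicate 1 or control replicate 2 (0.76 each) or without overexpression replicate 2 (0.91). At such low levels the size of a change depends on the pseudocount: with 0.1 in place of 1 it was 2.84 for Col16a1 and 1.52 for Col2a1.

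Col18a1, a multiplexin of basement membranes whose C-terminal fragment is endostatin, was the most abundant of the 13 member collagens, which do not include the Col4a genes. It measured 230.0, 277 and 178 FPKM in overexpression samples, against 249, 270.3 and 234 FPKM in controls, and the groups overlapped (change -0.16, 95% interval -0.60 to 0.28). Col12a1, a fibril-associated collagen gene, averaged 7.53 ± 2.15 FPKM under overexpression and 8.50 ± 2.93 FPKM in controls (SD, n = 3 each). Col23a1 and Col9a3, the transmembrane and the cartilage fibril-associated collagen genes, stayed at or below 1.03 FPKM in every sample. Their changes, 0.23 and 0.37, did not pass.

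**Figure D3:**
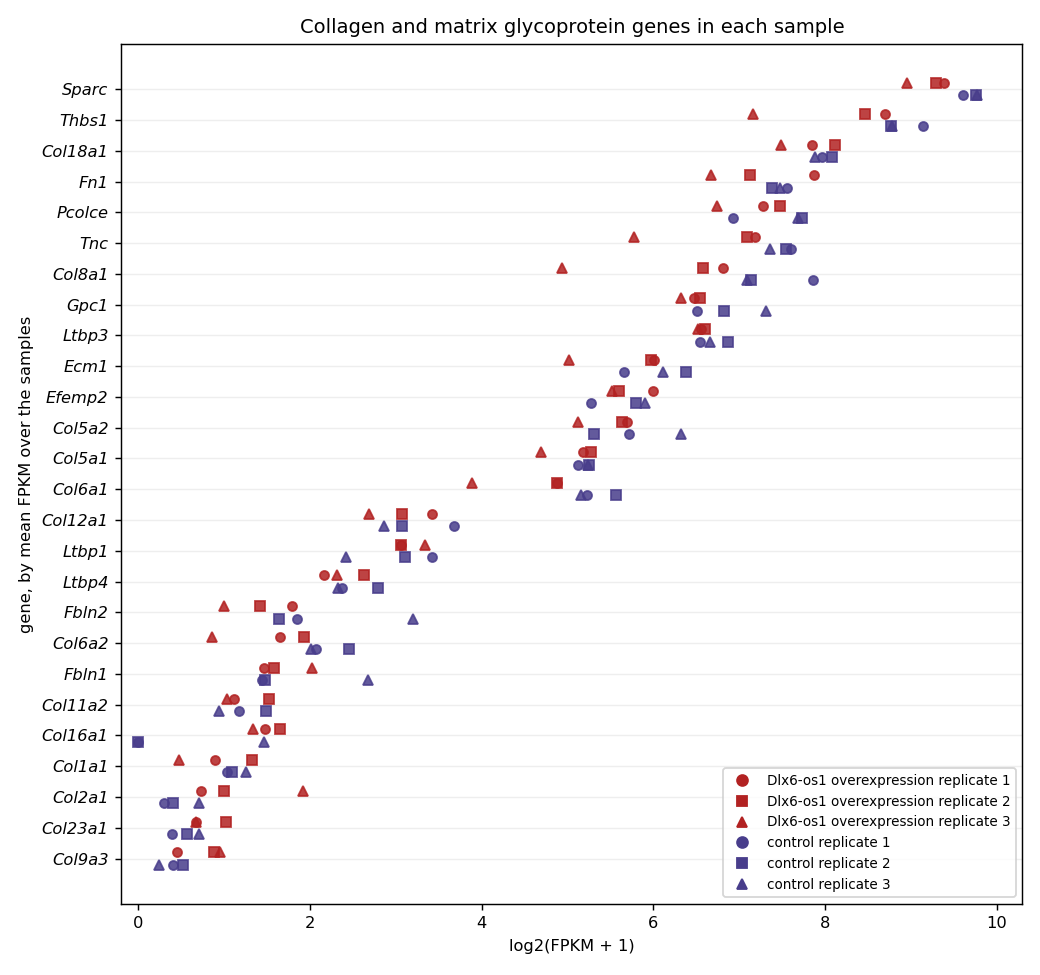
Level of each of the 26 genes in each sample, as log2(FPKM + 1), ordered from highest to lowest mean over the 6 samples, with overexpression samples in red and controls in dark blue. Sparc (495 to 669 FPKM under overexpression, 778 to 871 FPKM in controls) is at the top, and Col1a1, Col2a1, Col23a1 and Col9a3 lie at the bottom.

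None of the 6 measured elastic fibre and microfibril genes, of 15 on the list, passed, where 4.72% of all genes did. Ltbp3, which tethers latent TGF-beta to microfibrils, was the steadiest, at 93.0, 96.1 and 91.0 FPKM in overexpression samples, against 92.5, 116 and 99.96 FPKM in controls (change -0.13, 95% interval -0.46 to 0.20). Efemp2, the fibulin that guides lysyl oxidase to elastin, averaged 51.6 ± 9.65 FPKM under overexpression and 50.4 ± 11.1 FPKM in controls, and Ltbp4, which helps elastin assemble, 4.22 ± 0.889 FPKM and 4.69 ± 1.05 FPKM (SD, n = 3 each). The Ltbp4 sum includes Ltbp4-202, listed at 2.39 FPKM in overexpression replicate 2 and at 0 in every other sample. By Ltbp4-002 alone all overexpression samples lay below all controls (change -0.36), but it did not pass.

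Fbln2, a fibulin that bridges basement membranes and microfibrils, had 2.44, 1.67 and 0.998 FPKM in overexpression samples, against 2.59, 2.10 and 8.19 FPKM in controls. Its change of -0.83 did not pass (adjusted p = 0.583, limma) and was -0.34 without control replicate 3, but was called without overexpression replicate 1 (-1.02) or control replicate 2 (-1.12). Fbln1 had 1.75, 1.99 and 3.07 FPKM under overexpression, against 1.71, 1.79 and 5.38 FPKM in controls. That same control stood out, and Fbln1's change of -0.18 was 0.23 without it. Control replicate 3 was also the library with the highest sum of fibroblast and mesangial markers (634 FPKM, against 184 and 198 FPKM in the other controls). Most of that sum came from Tagln (458 FPKM, against 124 and 132 FPKM) and Acta2 (86.7 FPKM, against 6.86 and 6.06 FPKM). Among controls, Pdgfrb, S100a4 and Des were also highest there, while Gata3, Nt5e and Meis1 were not. The part of these marker levels in the fibulin values was not tested.

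Ltbp1, the binding protein through which latent TGF-beta is stored in matrix, measured 7.37, 7.33 and 9.16 FPKM in overexpression samples and 9.71, 7.63 and 4.33 FPKM in controls (change 0.17). Of its transcripts, the longest, Ltbp1-001, was above all controls in all overexpression samples, at 4.48, 5.07 and 3.68 FPKM, against 3.15, 3.14 and 2.02 FPKM (change 0.53, adjusted p = 0.657, limma), short of both thresholds.

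All 6 measured adhesive and matricellular genes, of 10 on the list, had changes below 0, and overexpression replicate 3 was the lowest sample for each of them, but only Tnc was called. Tenascin C, the product of Tnc, is a large de-adhesive glycoprotein made in wounds and in embryos. It measured 144, 135 and 53.7 FPKM in overexpression samples, against 193, 186 and 163 FPKM in controls. The controls were close together and all above the overexpression samples (change -0.82 ± 0.34 SE, 95% interval -1.60 to -0.03, adjusted p = 0.532 in limma). The call was lost without any of 4 libraries, namely each of the controls and overexpression replicate 3, the change without the last being -0.37, and also with its main transcript in place of the sum (-0.13), after TPM rescaling (-0.81) or after quantile normalization (-0.81). Exons of Tnc overlap the opposite-strand transcript 8030451A03Rik, and the sources used here do not say whether reads were assigned by strand.

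Thbs1 encodes thrombospondin 1, which binds cells and frees TGF-beta from its latent complex, and was the second most abundant member. Its values were 414, 352 and 142 FPKM in overexpression samples, against 565, 435 and 440.2 FPKM in controls. The groups did not overlap, yet the change of -0.79 ± 0.37 (SE) did not pass, its 95% interval running from -1.64 to 0.05, as the overexpression samples were far apart. It was -0.32 without overexpression replicate 3, and was called without overexpression replicate 1 (-1.09) or 2 (-0.97).

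Sparc, whose product binds collagen and escorts it during deposition, was the most abundant member. It measured 669, 625 and 495 FPKM in overexpression samples, against 778, 862 and 871 FPKM in controls. Here the difference was modest, and overexpression replicate 3 was the lowest sample. The change of -0.50 ± 0.19 (SE, 95% interval -0.94 to -0.06, adjusted p = 0.512 in limma) passed the unadjusted p without reaching a fold of 1.5. Without overexpression replicate 3 it was -0.37. Sparc was called lower when overexpression replicate 1 was left out (-0.59) and when its main transcript, Sparc-002, stood in for the sum (-1.40). The other transcript, Sparc-001, was higher (1.05).

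Fn1 encodes fibronectin, the first scaffold on which collagens are laid. It measured 232, 139 and 101 FPKM in overexpression samples, against 187, 166 and 177 FPKM in controls. Overexpression samples lay on both sides of the controls, which were tight (change -0.25, 95% interval -0.88 to 0.38). Pcolce, the enhancer of procollagen C-proteinase, had 154, 177 and 106 FPKM under overexpression, against 121, 212 and 204 FPKM in controls, and Ecm1, a glycoprotein that binds other matrix components, 63.1, 61.6 and 31.3 FPKM, against 49.5, 82.3 and 68.0 FPKM. Both overlapped between groups, with changes of -0.28 and -0.39.

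Some measured proteoglycan genes were counted in other lists. Of the 5 on the list of matrix proteoglycans only Gpc1 was measured, which encodes a heparan sulphate proteoglycan held on the cell surface by a lipid anchor. It measured 87.5, 92.3 and 79.1 FPKM in overexpression samples, against 90.1, 112 and 158 FPKM in controls. The overexpression samples were alike, the controls were spread, and the groups met at control replicate 1 (change -0.44, 95% interval -0.91 to 0.04), and it was called only without that control (-0.62). Exons of Gpc1, Thbs1, Fn1, Pcolce, Ltbp3, Col5a1 and Col9a3 also overlap genes on the opposite strand.

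The table is by transcript, and 14 of the members had more than 1. Of the 63 member transcripts, 3 were called higher (3.07% of all transcripts were) and 5 lower (2.51%), none at an adjusted p under 0.05 in limma (lowest 0.1498, with 8 at an unadjusted p under 0.05 and 0.101% of all transcripts past the adjusted one). In 5 all overexpression samples lay above all controls (9.39% of all transcripts) and in 6 below (5.85%). The 3 higher were Fn1-008, Fn1-003 and Sparc-001, and the 5 lower Col6a1-001, Col8a1-001, Sparc-002, Tnc-001 and Tnc-002. Among 51 transcripts of the genes with several, the share of the gene did not overlap between groups and was higher for 5 (7.72% of all such transcripts) and lower for 2 (7.04%), all of them from Sparc, Fn1 and Pcolce. Such shares are the authors' estimates from short reads and can trade between transcripts that differ little.

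For Sparc the gene's balance between 2 transcripts differed. Sparc-001 made up 37.8%, 78.0% and 34.3% of Sparc FPKM in overexpression samples, against 17.7%, 14.7% and 15.3% in controls. The controls were nearly equal and the overexpression samples were all above them and spread. The level of Sparc-001 was 253, 488 and 169.6 FPKM under overexpression, against 137, 127 and 133 FPKM in controls (change 1.05, adjusted p = 0.646, limma). Sparc-002 had 417, 137 and 325 FPKM, against 640.4, 736 and 738 FPKM (change -1.40, adjusted p = 0.630, limma). Without overexpression replicate 2, which was the highest, the share still differed by 20.1 percentage points.

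Both transcripts are coded by 10 exons of chromosome 11, and they differ in the length of the first exon and by 3 bases at the start of exon 3. The join of exons 2 and 3 is shown because these bases are the only difference in their coding sequence. Each line gives 21 bases on either side, from the GENCODE transcripts of GRCm38 (minus strand, exon 3 at chr11:55407220-55407279 in Sparc-001), with the extra bases, chr11:55407277-55407279, in capitals.
Sparc-001: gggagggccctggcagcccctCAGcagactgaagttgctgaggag
Sparc-002: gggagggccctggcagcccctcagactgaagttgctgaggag

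Fibronectin transcripts vary by 2 exons that are skipped as units, known as EDA and EDB, each coding for 1 fibronectin type III repeat, and by another exon of variable length. Adult plasma fibronectin lacks EDA and EDB, and matrix of developing or injured tissue carries them. Of the 9 measured Fn1 transcripts, 7 were long enough to hold these exons, and Fn1-001, which has both, was the main one in every sample. EDA is the 270-base exon 33 of 46 of Fn1-001, chr1:71603660-71603929, and EDB the 273-base exon 25, chr1:71613763-71614035, both on the minus strand of GRCm38 and coding throughout. They are shown because the differing transcripts are told apart by them, with no capitals, as each is present or absent whole.
EDA: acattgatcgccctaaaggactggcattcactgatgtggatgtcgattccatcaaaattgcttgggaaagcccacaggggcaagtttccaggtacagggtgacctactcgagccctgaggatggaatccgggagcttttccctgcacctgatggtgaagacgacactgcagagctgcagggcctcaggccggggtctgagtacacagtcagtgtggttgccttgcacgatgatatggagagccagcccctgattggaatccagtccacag
EDB: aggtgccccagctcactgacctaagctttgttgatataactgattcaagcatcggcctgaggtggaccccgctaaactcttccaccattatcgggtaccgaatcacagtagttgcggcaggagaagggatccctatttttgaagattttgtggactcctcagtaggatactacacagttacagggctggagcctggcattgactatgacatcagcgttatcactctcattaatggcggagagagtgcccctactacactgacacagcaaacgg

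Transcripts with EDB, here Fn1-001 alone, held 80.5%, 80.1% and 87.9% of the FPKM of long Fn1 transcripts in overexpression samples, against 93.4%, 92.8% and 93.6% in controls. The groups were apart and the controls nearly identical. Transcripts without EDA, which were Fn1-002, Fn1-006 and Fn1-008 and also lack EDB, held 15.3%, 11.7% and 8.81% under overexpression, against 5.29%, 5.62% and 4.84% in controls. So the share that carried neither exon was above the controls in each overexpression sample, by 6.70 percentage points on average, and by 5.02 to 8.27 points when any 1 library was left out.

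The steadiest difference was that of Fn1-008, which lacks EDA and EDB and has a variable exon of 392 bases where Fn1-001 has 467. Its level was 10.7, 6.92 and 4.598 FPKM in overexpression samples, against 0.742, 0.741 and 0.779 FPKM in controls. That is a change of 2.20 ± 0.30 (SE, adjusted p = 0.1498 in limma), and as a share of Fn1 it was 4.62%, 4.98% and 4.56%, against 0.397%, 0.447% and 0.440%. Fn1-003, with EDA and without EDB, had 2.13, 5.15 and 1.75 FPKM, against 0.473, 0.493 and 0.723 FPKM (change 1.27, adjusted p = 0.603, limma). Apol7d, annotated antisense to Fn1, overlaps 4 of its exons.

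Outside Sparc and Fn1, the groups were apart only in the small share of Pcolce-010, at 1.63%, 2.05% and 1.79% of Pcolce in overexpression samples, against 0.655%, 1.11% and 0.884% in controls. Tnc-201, which starts from an upstream non-coding first exon, made up 98.8%, 99.0% and 97.6% of Tnc in overexpression samples and 46.1%, 99.1% and 49.4% in controls. In control replicates 1 and 3 the remainder was given to Tnc-001 and Tnc-002, and in control replicate 2 it was not, so the calls on these transcripts rest on those libraries. Taking the most abundant transcript in place of the gene sum, Tnc changed by -0.13. Col18a1-001, which starts from its own first exon, swung from sample to sample in both groups, at 9.01%, 90.2% and 8.65% of Col18a1, against 84.9%, 8.28% and 8.65%.

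**Figure D4:**
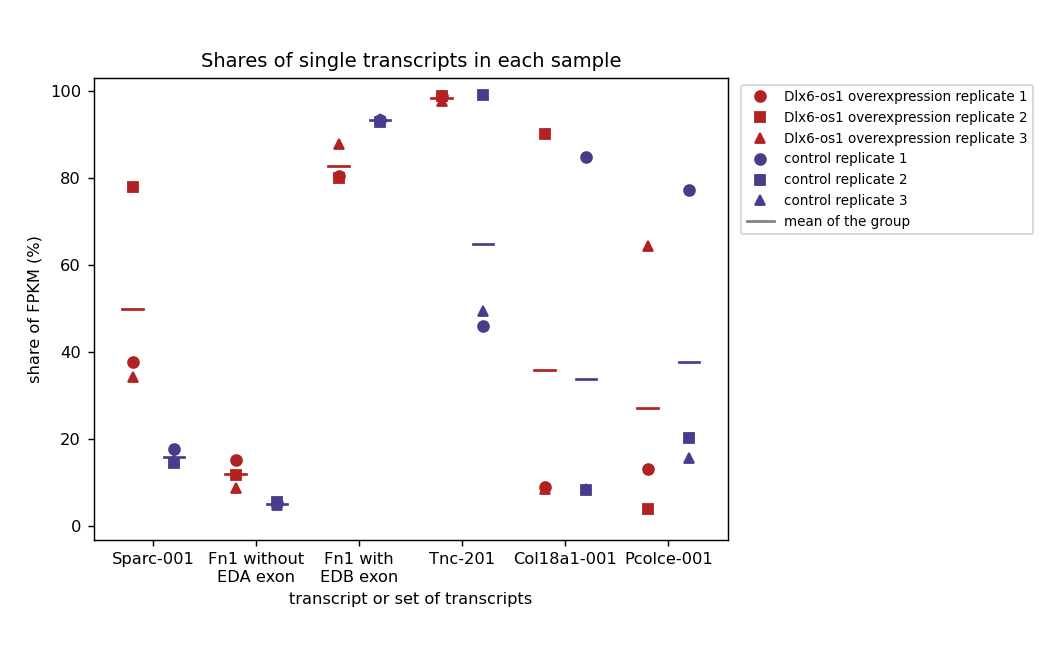
Share of FPKM held by single transcripts or sets of transcripts in each sample, as a percent of the gene (for Fn1, of its 7 long transcripts), with overexpression samples in red left of controls in dark blue and a bar at each group's mean. The groups are apart for Sparc-001 and for both Fn1 sets, and overlap for Tnc-201, Col18a1-001 and Pcolce-001.

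The main transcript differed between groups also for Col11a2, Fbln1 and Ltbp1, all at low levels and with changes from sample to sample. The level of Col11a2-201 was 1.16, 1.25 and 0 FPKM in overexpression samples, against 1.25, 0.0896 and 0.00687 FPKM in controls. Fbln1-002 had 0.444, 0.304 and 1.81 FPKM, against 1.35, 0.684 and 3.36 FPKM. In both, the samples of each group disagreed among themselves.

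Genes around the collagens and glycoproteins were read from lists chosen with earlier results of these data known. Of 79 other matrix genes 23 were measured, with 5 lower (2.23% of all genes were), none higher (2.49% of all genes) and a median change of -0.43, against 0.03 over all genes. The osteopontin gene Spp1 had 153, 133 and 78.9 FPKM in overexpression samples, against 361, 255 and 189 FPKM in controls (change -1.14, adjusted p = 0.425, limma). The others were Fras1 (-0.90), Spon2 (-1.27), Mgp (-1.52) and Wisp1 (-0.69). For Mgp and Wisp1 the groups overlapped, and for Spon2 control replicate 3 stood far above the other controls (22.5 FPKM, against 6.95 and 7.60 FPKM). Overexpression replicate 3 was the lowest sample for 18 of the 23 genes.

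Of 36 genes for collagen folding, secretion and cross-linking 28 were measured, 1 higher (2.49% of all genes were) and 2 lower (2.23%), with a median of -0.13. The lysyl oxidase genes Lox and Loxl1, whose enzymes cross-link collagen and elastin, were both lower. Lox had 3.60, 1.71 and 0.564 FPKM in overexpression samples, against 8.48, 4.15 and 5.25 FPKM in controls (change -1.32, adjusted p = 0.455, limma), and Loxl1 had 115, 109.7 and 71.0 FPKM, against 132, 165 and 156 FPKM (change -0.64). Adamts2, a procollagen N-proteinase gene, was higher, at 0.499, 0.851 and 2.94 FPKM, against 0, 0.0179 and 0.0508 FPKM. Its control mean was below 0.5 FPKM, so it too is in the table through its overexpression values.

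Of 27 matrix receptor genes 20 were measured and Itgb5, an integrin chain gene, was the only one called (change -0.65), which is 5% of the measured ones, near the 4.72% called over all genes. Of 19 TGF-beta genes 16 were measured, with 1 higher (2.49% of all genes were) and 1 lower (2.23%). The repressor gene Skil was the higher one (0.64) and the ligand gene Tgfb3 the lower one (-1.02). Tgfb3 had 13.1, 10.7 and 5.66 FPKM under overexpression, against 20.7, 20.9 and 18.1 FPKM in controls. The medians of these lists were -0.21 and -0.11, and overexpression replicate 3 was the lowest sample for 13 of the 20 receptor genes, as it was for the members.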

How the data were processed

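RNA-seq of 3 MPC5 samples overexpressing Dlx6-os1 and 3 controls was analysed. Per transcript, FPKM values were deposited by the authors, normalized to transcript length and mapped fragments. Per the labels, poly(A) RNA libraries were read in a strand-keeping protocol, and the submitters' processing notes name FastQC, HISAT2, StringTie and mm10. The sources used here give no annotation release. The larger group mean of a transcript was 0.5001 or more, so lower transcripts had been left out of the table. 1 emptied line was skipped. Depth is unknown: steps worth 1 read were sought in 302 to 345 low values per sample, and at best 26.9% to 28.5% lay within 0.1 of a whole number, against 20% if evenly spread.

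FPKM were summed per gene symbol. On the log2(FPKM + 1) scale, overexpression and control samples were compared by limma (version 3.58.1, under R 4.3.3, eBayes with trend, two-sided) over all 11308 genes, and over all 21849 transcripts, with Benjamini-Hochberg adjustment over each. The filter, a mean of at least 0.5 in 1 group or both, removed no gene. Calls used the study's thresholds, unadjusted p under 0.05 and fold above 1.5. An exact permutation of 3 against 3 samples cannot go below p = 0.1 and was not printed. The fit was tested on simulated data with independent noise for each gene and sample. Such data hold no shift shared by many genes of 1 library, so the test does not cover that case. Exon sequences came from GENCODE transcripts of GRCm38, promoter windows from RefSeq.

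All members may be named. Values per sample are given for members at the thresholds or with p under 0.05, for the 10 most abundant, and for those whose main transcript differs between groups, and up to 4 genes of each other list are named by smallest p. Wisp1, the named fibroblast and mesangial markers, the values per sample of Fbln2 and Col1a1, and the single transcripts were picked with their values in view. Some listed podocyte markers are not reported here and were left out of the sums. The members and lists were chosen with earlier results of these data known. Alternatives were pseudocounts of 0.1 and 0.5, no filter and a minimum mean of 1, TPM rescaling, quantile normalization, median centring, a replicate block, no variance trend, no moderation, the main transcript in place of the sum, only members whose control mean reached 0.5, and each sample left out.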

Additional observations from a re-analysis of the deposited data

How the results depend on the processing

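The members at the adjusted threshold numbered 0 in limma under each of the 17 alternatives, beside 7 at an unadjusted p under 0.05 as reported, and their median change stayed below 0, from -0.29 to -0.07. The alternative with no filter could not differ from the main fit, as the filter removed no gene. Calls were less stable. With 1 library left out, members called higher numbered 0 to 2 and lower 1 to 7, genes of the matrix lists higher 1 to 3 and lower 4 to 13, and member transcripts higher 2 to 5 and lower 1 to 7. Lower members numbered 7 without overexpression replicate 1, 5 without replicate 2 and 1 without replicate 3. Without control replicates 1, 2 and 3 they numbered 2, 2 and 3. Over all genes, lower calls numbered 382, 290 and 181 without overexpression replicates 1, 2 and 3, against 252 with all samples. The same counts without control replicates 1, 2 and 3 were 256, 202 and 319. Rescaled to TPM, 2 members were lower, 1 list gene higher and 3 transcripts lower. Median centring left 1 list gene higher. Without variance moderation 0 members were higher and 0 lower, 0 list genes were higher and 4 lower, and 1 transcript was lower. Higher and lower calls over all genes were fewer in that fit as well. With the main transcript of each gene, 1 member was higher. The cause of these shifts was not tested.

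Neither the labels nor the data settle whether replicate numbers pair the samples. Same-numbered samples deviated from their group means with correlations of 0.29, 0.02 and 0.29, and differently numbered ones with -0.31 to 0.11, so the samples of replicates 1 and 3 correlated best with their own number and those of replicate 2 did not. With the replicate number as a block 2 members were higher and 5 lower, against 2 and 4, the added gene being Thbs1, and 10 genes of the whole table passed the adjusted p, against 4. Over all genes 282 were higher and 252 lower, against 349 and 294 with that block and 228 and 314 after median centring.

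Small changes turned sign, none of them called as reported. With 1 library left out, Col11a2 ran from -0.13 to 0.17, Col12a1 from -0.32 to 0.095, Col18a1 from -0.31 to 0.0096, Col5a1 from -0.27 to 0.020, Efemp2 from -0.15 to 0.17, Fbln1 from -0.39 to 0.23, Fn1 from -0.57 to 0.027, Ltbp1 from -0.11 to 0.39 and Ltbp4 from -0.26 to 0.023. Col12a1, Col18a1, Col5a1 and Fn1 were above 0 without overexpression replicate 3. After median centring Col11a2 was at -0.015. By the main transcript Col11a2 was at -0.21, Efemp2 at -0.16 and Pcolce at 0.062. The isoform shares were recomputed without each library, an alternative chosen after seeing the data, and kept their direction, the Sparc-001 share differing by 20.1 to 42.0 percentage points and Fn1 transcripts with EDB by -13.0 to -9.07. With depth unknown, no limit can be set for genes listed at 0.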
